A study of Mus musculus with 2 samples.

Results

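Ins1, Ins2 and Iapp are the insulin and amylin transcripts of the mouse β cell, and were taken as the 3 rows, of 31053 genes in the deposited matrices, that carry these symbols. They were followed in single-cell RNA sequencing of pancreatic islets from wild type female C57BL/6J mice. The multipara group was 9 weeks old at the start, gave birth in 3 consecutive pregnancies and was studied 3 weeks after the last delivery, and virgin littermates were the controls. Each group gave 1 library, so that cells of different mice within a group cannot be told apart and a difference between the groups has no animal-to-animal spread to be read against. Cells in which Ins1 and Ins2 together took at least 20% of the unique molecular identifiers (UMIs, 1 per captured RNA molecule) are called insulin-rich. There were 1831 insulin-rich cells among 4330 kept virgin cells and 1568 among 3330 kept multipara cells.

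Mice, unlike humans, have a pair of insulin genes. Ins2 keeps the gene structure shared with other mammals, whereas Ins1 arose from it as a copy made through an RNA intermediate and lacks one of its introns. Both make preproinsulin, which is translocated into the endoplasmic reticulum (ER), folded with disulfide bonds, cut by the prohormone convertases in the granule and stored with zinc. Iapp encodes the precursor of amylin (islet amyloid polypeptide), a hormone of the calcitonin family that is processed by the same enzymes, stored in the same granules and released together with insulin, and that slows gastric emptying and promotes satiety.

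On the GRCm38 build (GENCODE M21), Ins1 (ENSMUSG00000035804) lies on the plus strand at chr19:52264297-52265476 and has 2 exons and 1 intron, with the coding sequence entirely in exon 2. Ins2 (ENSMUSG00000000215) lies on the minus strand of chromosome 7. Its main transcript spans chr7:142678659-142679726 with 3 exons and 2 introns, and the coding sequence is split over exons 2 and 3. Longer transcripts stretch the annotated Ins2 gene to 142743381. Iapp (ENSMUSG00000041681) lies on the plus strand at chr6:142298423-142303961 with 3 exons, inside the span of Slco1a5, a transporter gene on the minus strand. The coding sequences are given because the Ins1 to Ins2 ratio rests on telling these transcripts apart. They are written 5′ to 3′ from the start codon, Ins1 and Ins2 over their first 300 bases and Iapp whole, and capitals mark the bases at which aligned Ins1 and Ins2 differ or that have no counterpart in the other.
Ins1: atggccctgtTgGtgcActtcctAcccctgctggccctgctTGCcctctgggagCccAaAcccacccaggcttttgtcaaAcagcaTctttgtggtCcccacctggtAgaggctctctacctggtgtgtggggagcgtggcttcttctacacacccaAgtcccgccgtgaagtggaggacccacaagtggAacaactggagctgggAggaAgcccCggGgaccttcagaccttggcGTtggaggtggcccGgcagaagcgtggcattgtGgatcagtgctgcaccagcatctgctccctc
Ins2: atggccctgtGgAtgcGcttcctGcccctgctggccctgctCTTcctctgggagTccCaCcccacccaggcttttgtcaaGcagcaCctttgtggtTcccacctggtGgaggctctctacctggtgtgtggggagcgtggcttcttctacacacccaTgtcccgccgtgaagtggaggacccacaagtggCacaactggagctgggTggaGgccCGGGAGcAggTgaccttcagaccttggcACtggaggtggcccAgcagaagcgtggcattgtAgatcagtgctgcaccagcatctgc
Iapp: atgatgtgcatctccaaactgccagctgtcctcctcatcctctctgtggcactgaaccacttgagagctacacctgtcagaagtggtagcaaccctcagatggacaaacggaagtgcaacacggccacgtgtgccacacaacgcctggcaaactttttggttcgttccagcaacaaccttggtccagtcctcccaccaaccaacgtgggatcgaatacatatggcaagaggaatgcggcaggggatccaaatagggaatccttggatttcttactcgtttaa
Ins1 has 327 coding bases (108 codons before the stop) and Ins2 333 (110 codons). Over the 327 aligned positions 302 were identical (92.4%), and the longest run shared without a mismatch was 56 bases. The Iapp coding sequence of 282 bases (93 codons) shared no run longer than 8 bases with Ins2 and 7 with Ins1. After the stop codon, Ins1 had 526 transcribed bases and Ins2 54, and the longest run shared between these stretches was 22 bases. The main Ins2 transcript has 478 bases, so that reads of a library made from the 3′ end of the RNA can also fall in its coding sequence. The share of reads that did so was not tested. How reads that match both genes were counted is not given in the sources used here. In single cells picked after the values were seen, Ins1 took as little as 1.43% and Ins2 as little as 2.56% of insulin UMIs, and reads left uncounted were not tested.

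RefSeq (GRCm38.p6) gave a promoter window for 2 of the 3 members, Ins1 and Iapp. The 250 bases before the RefSeq start are shown because all 3 transcripts were high in the same cells. Capitals mark an E box (CATCTG, bound by NeuroD1 with its E protein partner) and A boxes (TAAT, the core read by homeodomain factors such as Pdx1), searched on both strands.
Ins1, chr19:52264047-52264296, plus strand: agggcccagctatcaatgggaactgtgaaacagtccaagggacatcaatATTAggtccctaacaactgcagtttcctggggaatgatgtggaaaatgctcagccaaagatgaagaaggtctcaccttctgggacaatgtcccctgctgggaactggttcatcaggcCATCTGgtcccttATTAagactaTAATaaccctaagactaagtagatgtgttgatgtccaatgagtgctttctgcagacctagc
Iapp, chr6:142298175-142298424, plus strand: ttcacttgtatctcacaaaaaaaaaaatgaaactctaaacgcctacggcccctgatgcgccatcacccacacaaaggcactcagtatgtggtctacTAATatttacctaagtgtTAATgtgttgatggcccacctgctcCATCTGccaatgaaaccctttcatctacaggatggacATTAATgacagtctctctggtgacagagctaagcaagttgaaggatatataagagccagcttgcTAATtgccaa
Both windows held 1 E box, 84 bases before the start in Ins1 and 111 in Iapp, and this motif was found in 14.4% of 32851 promoter windows of the same length. Ins1 held 3 A boxes and Iapp 5, of which 2 overlap, and 54.9% of promoters held at least 1. The letters TGACG, part of the cAMP response element (17.8% of promoters), and TGCTGA, of the Maf recognition element (16.1%), were not in either window.

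There were 5463 barcodes with 94853806 UMIs from virgin islets and 5075 with 82503776 from multipara islets, and 7 barcodes occurred in both. The filter of the study and a doublet call kept 79.3% and 65.6% of barcodes. Ins1, Ins2 and Iapp together were 39.5% of the UMIs of kept cells in the virgin library and 43.4% in the multipara library, and no barcode of either library lacked insulin UMIs. Of 14 beta cell markers, 13 were detected in the insulin-rich cells, with a summed level of 3296 (virgin) and 3173 (multipara) CPM, counts per 1000000 UMIs, against 494 and 475 CPM in the other kept cells. Adcyap1 was at 0. Clusters were built without the 3 genes. Of the insulin-rich cells, 82.4% (virgin) and 87.2% (multipara) lay in beta-like clusters, 13.5% and 9.44% in clusters that got no name and 3.22% and 1.85% in delta-like clusters. More than 1% of UMIs from Gcg, Sst, Ppy and Pyy together was found in 167 virgin (9.12%) and 134 multipara (8.55%) insulin-rich cells, and in how many of them a second cell shared the droplet was not tested.

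Cells split sharply by insulin. In the virgin library 55.6% of kept cells had under 5% insulin, 2.10% had 5 to 20%, and 42.3% (Clopper-Pearson 95% interval 40.8 to 43.8%) were insulin-rich; in the multipara library the shares were 47.4%, 5.53% and 47.1% (45.4 to 48.8%). Few cells stood near the limit. Between 19 and 20% insulin lay 5 virgin and 5 multipara cells, and between 20 and 21% lay 1 and 11, with median depths of 734 to 2662 UMIs. Insulin-rich cells had medians of 30343 (virgin) and 32574 (multipara) UMIs, and held 99.3% and 99% of all insulin UMIs of kept cells but 94.1% and 94.0% of the Iapp UMIs.

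**Figure D1:**
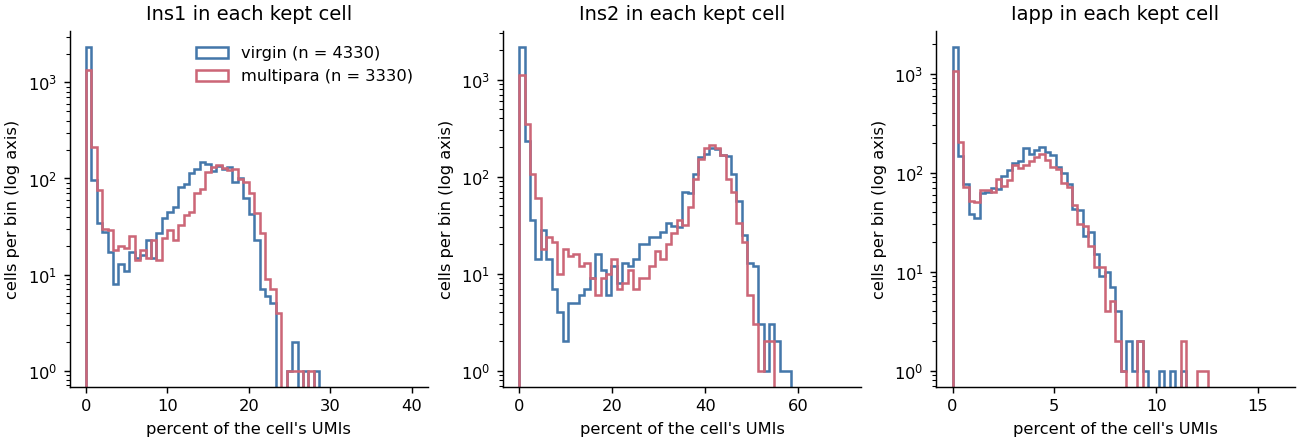
Percent of each kept cell's UMIs taken by Ins1, Ins2 and Iapp (x axes) against the number of cells per bin (log axes), for 4330 virgin and 3330 multipara cells. Each gene has a peak near 0 and a second peak around the medians of the insulin-rich cells, near 15 to 16.4% for Ins1, 41.0% for Ins2 and 4.3% for Iapp.

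Ins2 was the most abundant transcript of the insulin-rich cells, Ins1 the next and Iapp the third, in both libraries. Summed over cells, Ins2 took 409298 CPM in virgin and 412867 CPM in multipara cells, Ins1 152824 and 167966 CPM, and Iapp 43140 and 43696 CPM. The next gene, mt-Co3 of the mitochondrial genome, was at 9138 and 8637 CPM. The 3 genes together were thus 60.5% and 62.5% of all UMIs of these cells. UMIs count molecules captured at the 3′ end and do not scale with transcript length, but whether reads that match both insulin genes were lost unequally from Ins1 and Ins2 was not tested.

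From cell to cell, Ins2 had a median of 41.0% of UMIs in the virgin library, with 5th and 95th percentiles of 24.6 and 47.0%. In the multipara library its median was also 41.0% (23.3 to 46.6%). Ins1 had medians of 15% (7.88 to 19.95%) and 16.4% (8.26 to 20.9%). Iapp had medians of 4.32% (2.43 to 6.46%) and 4.29% (1.99 to 6.41%). The distributions of the libraries overlapped over nearly their whole range for all 3 genes, and Ins1 showed the visible shift, with its 25th percentile moving from 12.8 to 14.2% and its 75th from 17.4 to 18.5%. The median insulin-rich cell held 16938 (virgin) and 18618 (multipara) insulin UMIs.

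Between the libraries the 3 members differed little. The log2 ratio of multipara over virgin, on CPM, was 0.14 for Ins1 (95% counting interval 0.13 to 0.14), 0.01 for Ins2 (0.01 to 0.01) and 0.02 for Iapp (0.02 to 0.02). These intervals are narrow because at least 2068509 UMIs of each gene were counted in each library, and cover counting error only, not the difference between mice. None of the 3 passed a log2 ratio of 0.32 (25% higher) in either direction, which 7.5% of 14167 genes did upward and 21.9% downward in the same cells. For the 1247 genes averaging 50 CPM or more the shares were 3.53 and 3.93%. Scaling by TMM raised every log2 ratio by 0.11, changed the genes past this limit from 1062 higher and 3104 lower to 1520 and 2220, and gave 0.25 for Ins1, 0.12 for Ins2 and 0.13 for Iapp. Per UMI of all other genes the ratios were 0.21, 0.08 and 0.09. Ins1 was therefore the member with the highest ratio on all 3 scales, while the sign for Ins2 and Iapp depended on how the cells were weighted: with each cell counted equally they were at -0.0020 and -0.03.

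Ins1 made up 27.2% of insulin UMIs in virgin insulin-rich cells (27.2 to 27.2%) and 28.9% in multipara cells (28.9 to 28.9%), or 0.37 and 0.41 Ins1 UMIs per Ins2 UMI. Single cells varied much more around these values than counting gives. The standard deviation between cells was 4.74 percentage points in virgin and 4.28 in multipara cells, where binomial counting alone would give 0.60 and 0.91, which is 7.93 and 4.72 times less. The 5th to 95th percentiles ran from 20 to 34.1% and from 22.4 to 34.2%. The ratio thus differed between cells by more than the 1.73 points that separated the libraries.

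Among the 3 largest clusters of β cells, the summed Ins1 share had the same order in both libraries. It was higher in cluster 5 than in clusters 0 and 2. Cluster 5 was led by Fmo1 (a flavin monooxygenase), Pdyn (the prodynorphin precursor) and Pcsk1 (prohormone convertase 1/3), and its Ins1 share was 29.5% in 140 virgin and 30.6% in 421 multipara cells. In cluster 0, with Cox6a2, Nupr1 and Prss53 at its head, it was 27.9% in 624 and 28.5% in 597 cells. In cluster 2, led by Msln and Ucn3 (the hormone urocortin 3), it was 25.8% in 604 and 26.5% in 259 cells. The clusters contributed unequally: cluster 5 held 7.65% of virgin and 26.8% of multipara insulin-rich cells, and cluster 2 33.0% and 16.5%. With every cell weighted equally over the 6 clusters that had at least 20 insulin-rich cells in each library, the multipara mean exceeded the virgin mean by 1.4 points; with the same mix of these clusters in both libraries the gap was 0.40 points, and the multipara cells were higher in 5 of the 6. The exception was cluster 8, a beta-like cluster of few UMIs (medians 3482 and 2991), where the cell medians were 31.0% in virgin and 28.3% in multipara cells. Its summed shares went the other way, at 29.2% and 29.5%, so that it kept no fixed place beside cluster 5. In cells with Pdyn UMIs the median Ins1 share was 28.4% in 312 virgin and 30.2% in 372 multipara cells against 27.1% and 28.4% without, and in cells with Nupr1 UMIs it was 26.4% in 669 and 28.6% in 1007 cells against 27.8% and 29.4%.

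**Figure D2:**
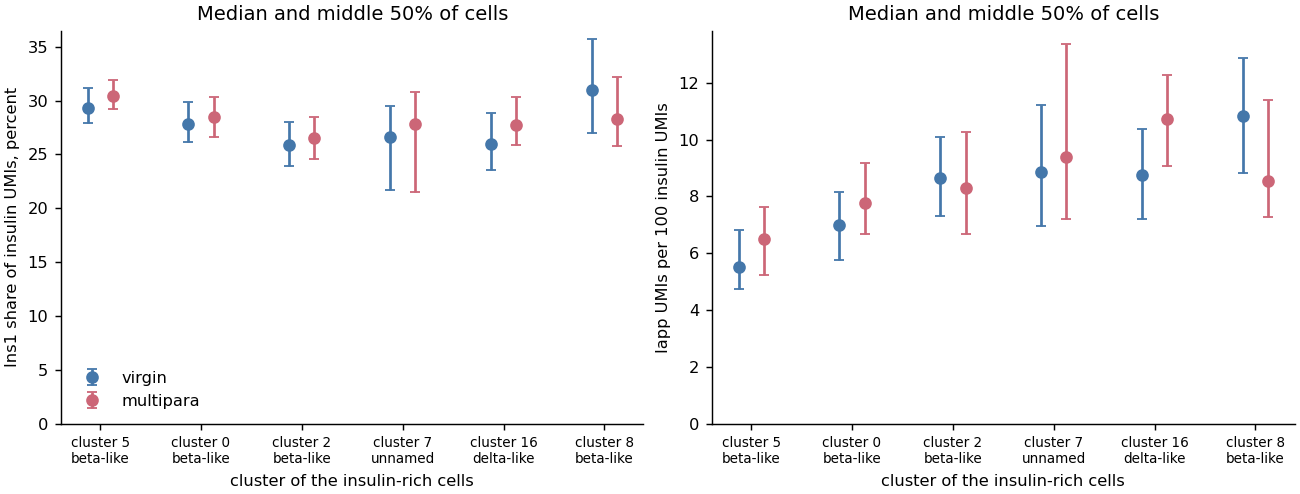
Ins1 share of insulin UMIs in percent (left) and Iapp UMIs per 100 insulin UMIs (right) in the insulin-rich cells of 6 clusters (x axes), by library; points are medians over cells and bars span the 25th to 75th percentile. The Ins1 share falls from cluster 5 over cluster 0 to cluster 2 in both libraries, while the Iapp ratio rises in the same order; cluster 8 does not follow this order.

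Cells with a high Ins1 share had more insulin and fewer mitochondrial UMIs. From the lowest to the highest quartile of insulin share, the median Ins1 share went from 26.0 to 28.8% in virgin and from 27.4 to 30.2% in multipara cells. Ins1 counts in both measures, which ties them. The Ins1 share had r of 0.53 and 0.48 with Ins1 per other UMI, but of -0.0044 and -0.0031 with Ins2 per other UMI. Spearman's rho was 0.53 and 0.55 with Ins1 and 0.14 and 0.18 with Ins2. From the lowest to the highest quartile of mitochondrial share the median Ins1 share fell from 29.2 to 25.1% and from 30.8 to 26.7%. Insulin itself also takes a smaller share where mitochondrial UMIs take a larger one, as both are parts of one total. Ins1 UMIs count in the Ins1 share and in that total, so that these measures are tied too. Across quartiles of depth the medians went up and down, between 26.7 and 28.0% and between 27.3 and 29.8%.

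Among 1248 genes averaging 50 CPM or more, scaled to the UMIs that are not of the 3 members, the Ins1 share rose across insulin-rich cells most closely with G6pc2 (the islet glucose-6-phosphatase), Prlr (the prolactin receptor), Ero1lb (the ER oxidase of proinsulin folding), Fmo1 and Prss53 (a serine protease). Correlations were modest, with r of 0.36 (virgin) and 0.23 (multipara) for G6pc2 and 0.33 and 0.22 for Prlr over 1831 and 1568 cells that share a library and differ in depth. Between the quartiles of cells with the lowest and highest Ins1 share, Fmo1 went from 17.1 to 97.8 CPM of other UMIs in virgin and from 83.8 to 354 CPM in multipara cells, and Prlr from 705 to 1348 and from 1051 to 1734 CPM. The 5 lowest correlations were mitochondrial genes of the respiratory chain: mt-Co3, mt-Nd2, mt-Atp6, mt-Co2 and mt-Nd4, with r between -0.17 and -0.23. mt-Co3 went from 26620 to 19105 CPM and from 27585 to 17841 CPM between the same quartiles.

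A small set of insulin-rich cells had a low Ins1 share. The limit of 15% for the Ins1 share was chosen after the values were seen. It was passed downward by 27 virgin cells (1.47%, 0.97 to 2.14%) and 12 multipara cells (0.77%, 0.40 to 1.33%), and 7 and 2 cells were even under 5%. The most extreme, a virgin cell, had 6556 Ins2 UMIs, 95 Ins1 UMIs and 1034 Iapp UMIs. In these cells the median of Ins1 was 3.03% of UMIs in virgin and 3.24% in multipara cells of this kind, while Ins2 was at 33.9% and 34.6% and Iapp at 4.58% and 5.66%, against the 41.1% and 41.0% of Ins2 and the 4.32% and 4.28% of Iapp in the remaining insulin-rich cells. They held medians of 577 and 746 Ins1 UMIs, above the medians of 13 and 34 in non-endocrine cells. Their median depths were 22441 and 17824 UMIs, against 30343 and 32574 in all insulin-rich cells.

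Most of these cells sat together. Cluster 7, which got no name and was led by Chga (chromogranin A), Cpb2, Defb1 and Sult1d1, held 22 of the 27 virgin and 8 of the 12 multipara cells, although it had 237 and 65 of the insulin-rich cells. More than 1% of UMIs from Ppy and Pyy, the pancreatic polypeptide and peptide YY genes, was present in 17 of the 27 and 7 of the 12 cells, against 5.43% and 3.28% of the other insulin-rich cells. The other 10 virgin and 5 multipara cells had both hormones at 1% or less. Scaled to other UMIs, genes of mature β cells were lower in the low-Ins1 cells than in the other insulin-rich cells of beta-like clusters. Mafa, a factor that binds the insulin promoter, was at 71.5 CPM (46.7 to 105) against 948 CPM in the virgin library and at 63.4 CPM (29.0 to 120) against 939 CPM in the multipara library. Slc2a2, the GLUT2 glucose transporter, was at 66.0 against 807 CPM and 35.2 against 585 CPM, and G6pc2 at 190 against 1271 CPM and 84.5 against 1152 CPM. Chga went the other way, at 39154 against 17786 CPM and 37994 against 16364 CPM. Nkx6-1, another β cell factor, was at 404 against 642 CPM and 352 against 594 CPM. The other insulin-rich cells of cluster 7, 215 virgin and 57 multipara cells, lay between both for these genes. They had 234 and 284 CPM of Mafa, 358 and 198 CPM of Slc2a2, 614 and 578 CPM of G6pc2, 27538 and 23331 CPM of Chga and 439 and 371 CPM of Nkx6-1. Ppy was likewise at 57202 and 42880 CPM in the low-Ins1 cells, 22716 and 25770 CPM in the rest of cluster 7 and 977 and 893 CPM in beta-like clusters. How far these values follow the cluster rather than the Ins1 share was not tested. The cells were few, and since their choice used Ins1 these values are a description.

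**Figure D3:**
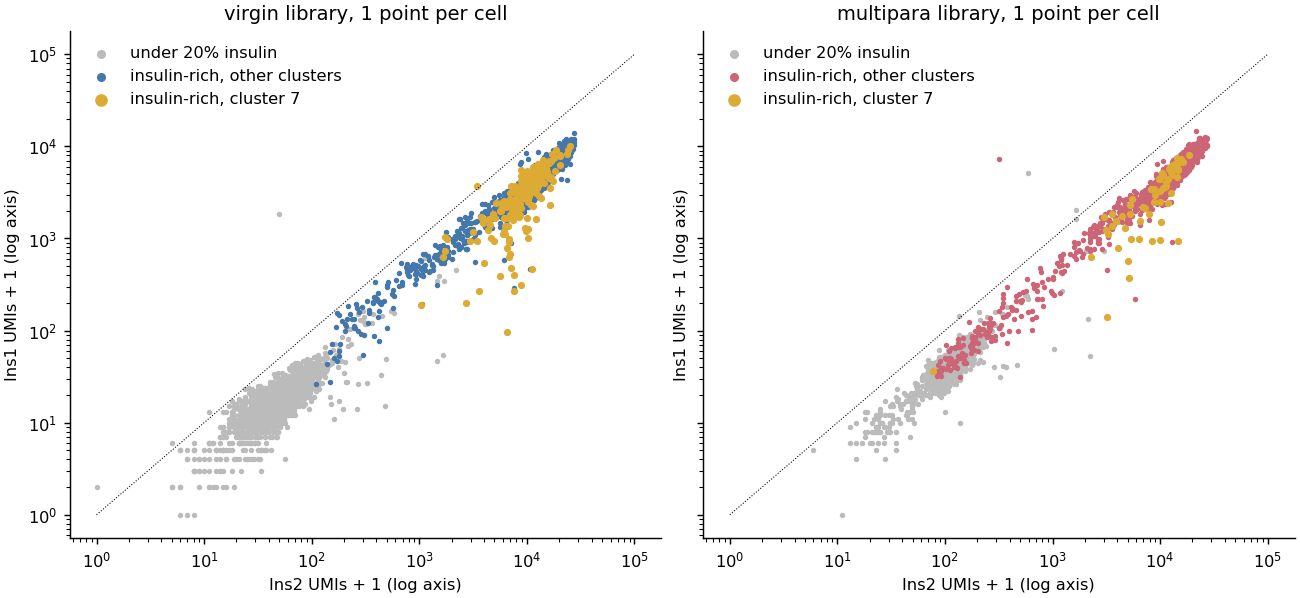
Ins2 UMIs (x) and Ins1 UMIs (y) of each kept cell, with 1 added, on log axes, for the virgin (left) and multipara (right) library; grey points are cells under 20% insulin, coloured points insulin-rich cells, yellow those of cluster 7, and the dotted line marks equal counts. Nearly all cells lie on one band below the line; some yellow points drop below the band at high Ins2, and 1 virgin and 2 multipara cells lie far above it.

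Among kept cells with at least 5000 UMIs and 5% insulin, an Ins1 share near 90% or higher occurred in 3 cells, also picked after seeing the values. A multipara cell of the beta-like cluster 0 had 7335 Ins1, 314 Ins2 and 3002 Iapp UMIs, an Ins1 share of 95.9%. A second multipara cell, of cluster 5, had 5115 Ins1, 596 Ins2 and 3803 Iapp UMIs (89.6%) and missed the insulin-rich limit at 18.6% insulin. A virgin cell of cluster 7 had 1866 Ins1, 49 Ins2 and 717 Iapp UMIs (97.4%) at 18.1% insulin. In all 3 Iapp was high, at 11.4%, 12.4% and 6.77% of UMIs, and Gcg, Sst, Ppy and Pyy together took at most 0.12%. The 49 Ins2 UMIs of the virgin cell were in the range of carry-over, since non-endocrine cells of that library had a median of 36 and a 90th percentile of 57 Ins2 UMIs. The second of these cells moved the summed Ins1 share of the 10 multipara beta-like cells under 20% insulin to 75.3%, against 30.1% in the 20 virgin ones.

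Amylin followed insulin less closely than the insulin genes followed each other. Over all kept cells the correlation of log2(1 + counts per 10000) was 0.99 between Ins1 and Ins2 in both libraries and 0.84 between Iapp and either, over cells that span both peaks of insulin. Within insulin-rich cells, per UMI of other genes, r was 0.83 (virgin) and 0.87 (multipara) between Ins1 and Ins2, 0.57 and 0.66 between Ins2 and Iapp, and 0.49 and 0.59 between Ins1 and Iapp. Summed over cells there were 7.67 Iapp UMIs per 100 insulin UMIs in virgin cells (7.66 to 7.68) and 7.52 in the multipara library (7.51 to 7.53), a log2 ratio of -0.03. Between cells the ratio ran from 4.21 to 13.8 and from 3.95 to 12.7 per 100 between the 5th and 95th percentiles.

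The Iapp ratio was lower the more insulin a cell had. From the lowest to the highest quartile of insulin share its median went from 10.5 to 5.97 per 100 in virgin and from 9.18 to 6.17 in multipara cells. Insulin stands in the denominator, which ties the measures. Per UMI of other genes, Iapp rose with the insulin percent, with r of 0.51 and 0.62 and Spearman's rho of 0.35 and 0.37 over cells of 1 library each. These measures are tied too, since fewer other UMIs raise both. As a percent of UMIs, the median of Iapp over the same quartiles was 4.41, 4.62, 4.38 and 3.85% in virgin cells. In multipara cells it was 3.96, 4.62, 4.41 and 3.94%. Across clusters 5, 0 and 2 the order was the reverse of that of the Ins1 share. Cluster 5 had 5.67 and 6.45 Iapp per 100 insulin UMIs, cluster 0 7.02 and 7.86, and cluster 2 8.67 and 8.42. Cluster 8 broke the pattern, with 9.66 and 8.85 per 100 beside summed Ins1 shares of 29.2% and 29.5%. In clusters 5 and 0 the multipara cells were thus higher, though over all insulin-rich cells they were lower. Over the 6 clusters the mean per cell was 0.33 per 100 lower in the multipara library as the cells stood, and 0.46 per 100 higher with an equal cluster mix, with 4 of the 6 clusters higher. The sign of the difference between the libraries therefore depended on the mix of cells.

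**Figure D4:**
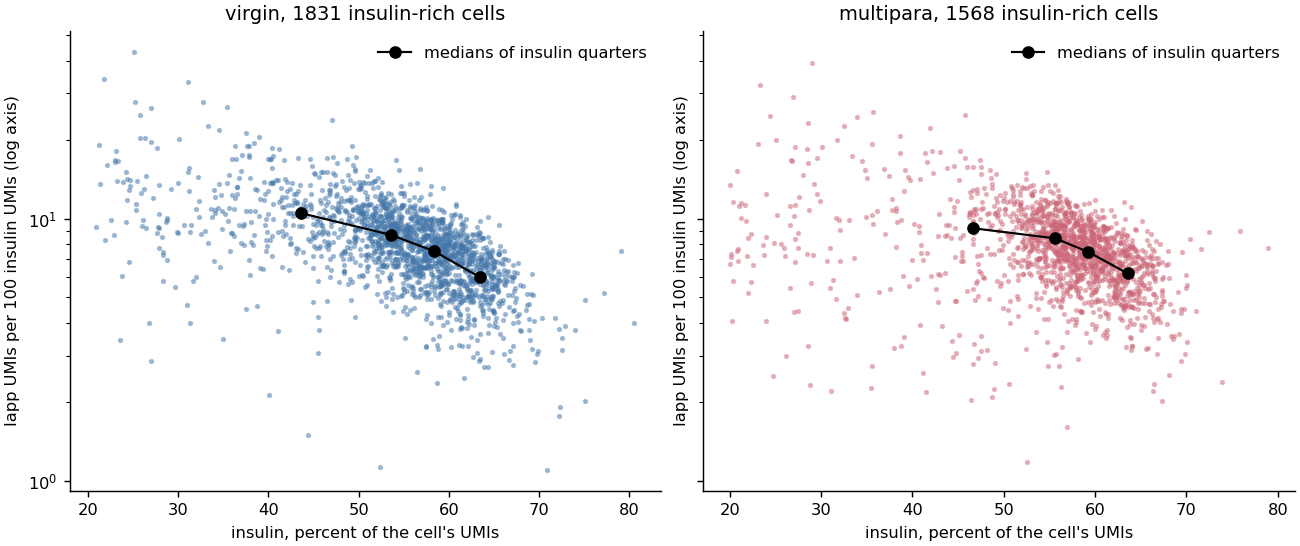
Iapp UMIs per 100 insulin UMIs (log axis, values beyond 0.5 or 50 drawn at these limits) against the percent of UMIs from insulin in each insulin-rich cell, 1831 virgin (left) and 1568 multipara (right); black points are medians of the quartiles of cells by insulin share. The medians fall from 10.5 to 5.97 in virgin and from 9.18 to 6.17 in multipara cells.

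Genes whose level rose with the Iapp to insulin ratio were Rpl23 and Rps2 (ribosomal proteins), Eef1a1 (a translation elongation factor), Ftl1 (ferritin light chain) and Zdhhc2 (a palmitoyltransferase), with r between 0.18 and 0.31. Genes that fell were Mafa, Fmo1, C2cd4b, the nuclear RNA Malat1 and Ero1lb, with r between -0.21 and -0.33. From the quartile of cells with the lowest to the one with the highest Iapp ratio, Mafa went from 1089 to 498 CPM of other UMIs in virgin and from 1069 to 658 CPM in multipara cells, and Fmo1 from 106 to 19.9 CPM and from 385 to 97.9 CPM. Ftl1 went from 3033 to 4273 CPM and from 3080 to 4476.9 CPM.

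Outside the insulin-rich cells, insulin UMIs were found in every class. In non-endocrine cells, types not known to transcribe the insulin genes, the median was 49.5 insulin UMIs per cell in 784 virgin and 124.5 in 546 multipara cells, against 16938 and 18618 in insulin-rich cells. Endothelial-like, macrophage-like, T cell-like, B cell-like and mesenchymal-like cells had class medians of 47 to 57 in the virgin library. In the multipara library these 5 classes and a red cell-like cluster of 42 cells, found in that library alone, had medians of 121.5 to 128. Medians were higher in the 20 virgin and 10 multipara beta-like cells under 20% insulin, at 119 and 210, and in unnamed clusters, at 73 and 171. The number rose less than the depth: in the shallowest, middle and deepest tertiles of the virgin non-endocrine cells, with median depths of 2235, 3955 and 7337 UMIs, the medians were 44, 48 and 59 insulin UMIs. In the multipara library they were 121.5, 123 and 129 at 2488, 4660 and 8670 UMIs. Spearman's rho between depth and insulin UMIs was 0.44 in virgin and 0.21 in multipara non-endocrine cells. As a share of UMIs the carry-over fell with depth, from 1.93 to 0.73% and from 5.03 to 1.46%.

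The multipara library carried more of it. Summed over non-endocrine cells, insulin was 1.07% of UMIs in virgin and 2.43% in multipara cells, 2.27-fold higher (log2 1.18, 1.16 to 1.2), and Iapp was 1206 and 2199 CPM, 1.82-fold higher. In insulin-rich cells the summed insulin level differed by a log2 ratio of 0.05. Per cell, over the 6 clusters, the insulin percent was 2.18 points higher in the multipara library as the cells stood and 0.40 points lower with an equal cluster mix (difference -0.40), a comparison chosen after seeing the data. The carry-over had Ins1 shares of 26.1% (25.7 to 26.6%) and 27.7% (27.3 to 28.0%), 1.0 and 1.3 points under those of the insulin-rich cells. It had 11.3 and 9.06 Iapp UMIs per 100 insulin UMIs, against 7.67 and 7.52 in insulin-rich cells and 8.07 and 7.96 over all barcodes. By class the ratio ran from 9.93 (macrophage-like) to 13.4 (endothelial-like) in the virgin library. In the multipara library it ran from 7.80 (T cell-like) to 9.91 (endothelial-like). A droplet median of 124.5 insulin UMIs is 0.67% of that of a multipara insulin-rich cell, and 49.5 is 0.29% in the virgin library. Thinned to 1000 UMIs per cell, 92.8% of 752 virgin and 98.3% of 521 multipara non-endocrine cells still had an Ins1 UMI, so that presence of insulin UMIs does not mark a β cell in these libraries. Unthinned, the shares were 99.7% and 100%.

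Alpha-like and PP-like cells had insulin near this background. Their medians were 79 and 67 insulin UMIs per cell in virgin and 144 in both classes in multipara cells, at median depths of 16490 to 20845 UMIs, several times those of non-endocrine cells. As a share of UMIs insulin was 0.52% and 0.96% in alpha-like and 0.55% and 0.70% in PP-like cells, below the non-endocrine level in both libraries. Iapp was at 1072 CPM in virgin and 1385 CPM in multipara alpha-like cells, below the non-endocrine level. Per droplet the order was the other one, with medians of 11 against 5 and 17 against 12 Iapp UMIs. Iapp was above 1% of UMIs in 7 of 1044 and 5 of 673 cells. Summed over cells there was more of it relative to insulin than in the carry-over, at 20.6 (20.3 to 20.9) and 14.5 (14.3 to 14.7) per 100. A few cells with much Iapp weigh on these sums. The cell medians were 11 Iapp and 79 insulin UMIs in virgin and 17 and 144 in multipara alpha-like cells. In non-endocrine cells they were 5 and 49.5 in virgin and 12 and 124.5 in multipara cells. PP-like cells were at 1602 and 983 CPM of Iapp when summed, but their cell medians were 0.059% and 0.082% of UMIs, below the non-endocrine medians of 0.12% and 0.23%, and 8 of 119 and 7 of 111 of them had Iapp above 1%.

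Delta-like cells expressed Iapp. Their insulin was below the non-endocrine level as a share, at 0.70% and 1.49% of UMIs, and above it per droplet, with medians of 70 against 49.5 and 141 against 124.5 UMIs. The 415 virgin and 345 multipara delta-like cells under 20% insulin that these values cover had 20886 and 24346 CPM of Iapp, 48.4% and 55.7% of the level in insulin-rich cells and 17.3 and 11.1 times that in non-endocrine cells. The log2 ratio between the libraries was 0.22 (0.21 to 0.23). Per cell the median was 2.10% of UMIs (5th to 95th percentile 0.62 to 4.21%) in virgin and 2.37% (0.80 to 4.35%) in multipara cells, and the lowest single cells were at 0.21% and 0.25%. Iapp UMIs outnumbered insulin UMIs in 381 of the 415 cells (91.8%) and 284 of the 345 (82.3%), where in alpha-like cells they did so in 2.11% and 0.74%. There were 298 and 164 Iapp UMIs per 100 insulin UMIs and 14.1 and 14.4 per 100 Sst UMIs. In the multipara delta-like cells Iapp was 1.17-fold and insulin, the denominator, 2.12-fold the virgin CPM. Insulin in non-endocrine cells was 2.27-fold. How much of the delta-like insulin was carry-over was not tested. Thinned to 1000 UMIs, 100% of 411 and 345 delta-like cells had an Iapp UMI, against 72.6% and 86.4% of non-endocrine cells. Unthinned, the shares were 100% against 98.9% and 99.6%, at median depths of 10608 and 10537 against 3958 and 4660 UMIs. A separate delta-like cluster, cluster 16, had 46 virgin and 28 multipara cells with a median of 45.0% insulin and 36968 UMIs, and all but 2 of its 74 cells were insulin-rich; whether these are droplets with both a delta and a β cell was not tested.

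**Figure D5:**
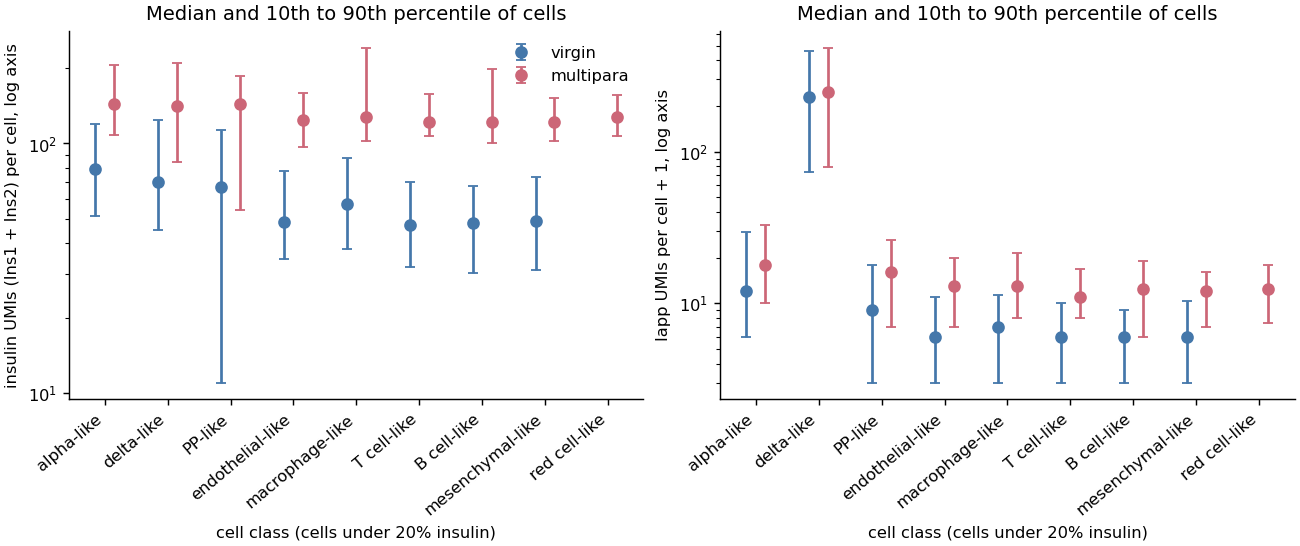
Insulin UMIs per cell (left) and Iapp UMIs per cell plus 1 (right), both on log axes, in kept cells under 20% insulin by class and library; points are medians and bars the 10th to 90th percentiles. Across the classes drawn, insulin medians lie at 47 to 79 in virgin and 121.5 to 144 in multipara cells (beta-like and unnamed clusters are not drawn), and Iapp stands out in delta-like cells at 230 and 245 UMIs.

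Among genes that act on insulin and amylin, differences between the libraries in insulin-rich cells were mostly within the log2 limit of 0.32. For 16 regulators of the insulin gene, 15 had at least 10 UMIs. None was higher and 3 were lower past the limit, with a median log2 ratio of -0.19 beside -0.11 for all 14167 genes and the 7.5% and 21.9% of all genes past that limit. The 3 were Rfx6 at -0.37, Glis3 at -0.33 and Tcf3 at -0.36, and none of them stayed past the limit under TMM. Mafa was at 0.08 and Pdx1 at -0.20. Of 18 genes for prohormone processing and granule cargo, 2 were higher and 3 lower, with a median of -0.03. Chgb (chromogranin B) was at 0.37 and Vgf, a granule peptide precursor with 244 and 326 UMIs, at 0.60. Slc30a8, the zinc transporter that loads the insulin granule, went from 500.5 to 358 CPM (-0.49), Scg3 was at -0.37 and Ptprn2 at -0.37, and under TMM Slc30a8 was the 1 gene of the list lower past the limit while Chgb and Vgf were still higher. The convertases were at 0.06 for Pcsk1 and 0.13 for Pcsk2.

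Genes of ER entry and folding of prohormones mostly had ratios above 0. All 32 were measured and 29 had a log2 ratio above 0, where 30.3% of all genes did. Their median was 0.15, beside -0.11 for all genes and -0.04 for the 1247 genes averaging 50 CPM or more. The share above 0 among those 1247 genes was not counted. Cluster 5 held 7.65% of virgin and 26.8% of multipara insulin-rich cells, and how far the ratios follow the cluster mix was not tested. Past the limit was 1, Ssr4 (a subunit of the translocon-associated complex), from 469 to 594 CPM (0.34). Under TMM 9 of the 32 passed it, all upward, beside 10.7% of all genes upward and 15.7% downward, among them Pdia6 (a disulfide isomerase, 0.29 on CPM), Sec11c (signal peptidase, 0.28) and Ero1lb (0.25). Within each library, the highest correlations of insulin per other UMI from cell to cell were with Pdia6 (r 0.51 and 0.59), Manf (0.49 and 0.60), Ubb, Dad1 and Tmed9. The lowest were with Ppy, Pyy, Gm42418, Sst and Gcg. All these genes count among the other UMIs that divide insulin, which ties the measures, most for abundant hormones. How far the correlations follow from this was not tested.

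Other hormones of the insulin and calcitonin families were close to absent from the insulin-rich cells. Of 11, 3 had at least 10 UMIs in these cells over both libraries. Adm2, which encodes adrenomedullin 2 (intermedin), had 75 UMIs in virgin and 166 in multipara insulin-rich cells, 1.4 and 3.51 CPM (log2 1.33, 0.93 to 1.74). Insl6 had 14 and 13 UMIs and Calca 21 and 15, with intervals of the ratio that include 0. Of 9 receptor genes 7 were measured. Calcr, the core of the amylin receptor, had no UMI in the insulin-rich cells, which allows up to 0.06 CPM there in either library. Its partners Ramp1, Ramp2 and Ramp3 had 898 and 566, 146 and 151, and 13 and 18 UMIs. Ramp1 was lower at -0.48 (-0.64 to -0.33), and Ramp3 was past the limit upward with an interval that includes 0 (-0.46 to 1.80). Igf1r was higher at 0.47 (44.1 and 61 CPM) and Insr, the insulin receptor, lower at -0.38 (10.5 and 8.07 CPM), within the limit under TMM, where Ramp2 (0.23 on CPM) passed it upward. Igf2r was at -0.16 and Insrr at -0.28. The 5 other islet hormones were lower past the limit in the multipara insulin-rich cells when summed, where 21.9% of all genes were. Gcg was at -0.75 (2817 and 1671 CPM), Sst at -0.77, Ppy at -1.28 (2548 and 1047 CPM) and Pyy at -1.29. Ghrl, with 13 and 4 UMIs, was at -1.52 with an interval that includes 0. Gcg took over 1% of UMIs in more multipara cells, 69 (4.40%) against 40 virgin cells (2.18%), and its 90th percentile was 0.22% against 0.17%, so that its direction depends on the measure. Ppy took over 1% of UMIs in 81 virgin and 41 multipara insulin-rich cells and 0.02% in the median cell of both libraries. Leaving out the low-Ins1 cells and scaled to other UMIs, Ppy was at 977 (virgin) and 893 CPM (multipara) in beta-like clusters and 22716 and 25770 CPM in cluster 7. Cluster 7 held 12.9% of virgin and 4.15% of multipara insulin-rich cells. Gcg took 0.09% (virgin) and 0.06% (multipara) of UMIs in the median insulin-rich cell. In the median non-endocrine cell it took 0.20% and 0.14%, and free RNA was not subtracted. How far the hormone ratios follow the cluster mix or the carry-over was not tested.

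Over all kept cells and 1522 genes averaging 50 CPM or more, the genes most like Ins1 and Ins2 were the same 5: G6pc2, Prlr, Ero1lb, Prss53 and Ucn3, with r between 0.74 and 0.85 in 4330 virgin and 3330 multipara cells. The genes most like Iapp were Ppp1r1a (0.81 and 0.74), Hadh (0.80 and 0.74), Enho, G6pc2 and Prlr. The points are cells of a single library per group that share its carry-over, and the values are a description.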

How the data were processed

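Islets were dissociated with trypsin and captured with 10x Genomics 3′ v3.1 chemistry. The authors deposited, per library, raw UMI counts per gene and barcode, and the submitters' processing notes name Cell Ranger 3.1.0, Seurat 3.0 and the builds GRCm38 and mm10. The filter of the study was applied (over 200 and under 6000 genes, under 60000 UMIs, under 10% mitochondrial UMIs) and Scrublet doublets (61 and 44) were removed (scanpy 1.11.5). Both libraries were clustered together without the 3 genes (2000 variable genes, 30 components, 20 neighbours, leidenalg 0.10.2, resolution 1) and named from marker lists. Free RNA was not subtracted. Counts were summed over cells. Intervals are 95% exact Poisson, Clopper-Pearson or conditional binomial ones and cover counting error only. With 1 library per group no test was made and p-values are not given; a gene needed 10 UMIs to be compared, and a difference was counted past a log2 ratio of 0.32. Named genes were the members, list genes past the limit, family hormones and receptors with 10 UMIs, the other islet hormones, and per measure the 5 genes with the highest and the 5 with the lowest correlation, ranked by the library nearer to 0. Other genes (in the low-Ins1 cells, and Mafa, Pdx1, Pcsk1, Pcsk2, Pdia6, Sec11c and Ero1lb in the lists) and the correlates of insulin were named after their values were seen. TMM used edgeR 4.0.16 and median-of-ratios scaling DESeq2 1.42.0. The members and gene lists were chosen with earlier results of these data known, and the limits for cells of unusual Ins1 share and the equal cluster mix after seeing the data. The fold limit with its interval and the correlation across cells were tested on simulated counts. The simulated sums had counting error only, without variation between mice. Clustering, naming, doublet calls, thinning, the equal cluster mix and the carry-over measures were not tested in this way.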

Additional observations from a re-analysis of the deposited data

Results flagged for a closer look

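Barcodes that the filter removes for having 200 genes or fewer were looked at because they lie outside the comparisons. Insulin took at least 20% of UMIs in 94 of 524 such multipara barcodes (17.9%), against 1 of 445 virgin ones (0.225%). Their median depths were 1635 and 1820 UMIs over all of these barcodes. The Ins1 share of insulin in them was 29.3% (multipara) and 28.2% (virgin), and there were 8.79 and 9.60 Iapp UMIs per 100 insulin UMIs. The cause was not tested.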

How the results depend on the processing

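No paired analysis was possible because each group had 1 library, and for the same reason no replicate could be left out. Of 119 values under other settings, 39 moved by less than counting error (counts of genes by less than 1.5 times), 73 moved further and 7 changed sign; unless its construction shows it, the cause was not tested. The log2 ratio of Ins1 was above 0 in all 13 alternatives, and the sign of Ins2, Iapp and the Iapp to insulin ratio was not kept in all. None of the 13 held the cluster mix equal, which was done for the insulin percent, the Ins1 share and the Iapp ratio only. With an equal mix, mean insulin per cell was 55.9% (virgin) and 55.5% (multipara) of UMIs, and the mean Ins1 share 27.6% and 28.0%. In the next sentences the log2 ratios are of Ins1, Ins2 and Iapp in this order. With a limit of 10% insulin, 49.6% of multipara cells were insulin-rich and Ins1 and Ins2 were at 0.13 and 0.0095; with 40%, the shares were 38.5% (virgin) and 43.3% (multipara) and the ratios 0.12, -0.0044 and 0.011. Without cell filters the shares were 38.0% and 38.4% and the ratios 0.14, 0.017 and 0.036; with a mitochondrial limit of 5% they were 39.1% and 42.7%, and 0.12, 0.0053 and 0.051. Keeping doublets gave 0.14, 0.018 and 0.025, and no upper limits 0.14, 0.015 and 0.033. Leaving out cells with 1% or more of other hormones gave 38.4% and 43.1%, and 0.11, -0.0058 and 0.0075; beta-like clusters gave 35.3% and 41.4%, and 0.11, -0.011 and 0.014. Equal weight per cell gave 0.11, -0.0020 and -0.032, thinning to 5000 UMIs 0.14 and 0.016 for the insulin genes, scaling by other UMIs 0.21, 0.085 and 0.091, TMM 0.25, 0.12 and 0.13, and median-of-ratios 0.25, 0.13 and 0.13.

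The gap in Ins1 share of 1.73 points was 1.68 (40% insulin), 1.68 (5% mitochondrial), 1.76 (no upper limits), 1.65 (other hormones under 1%), 1.65 (beta-like clusters), 1.495 (equal cells) and 0.40 (equal cluster mix, chosen after seeing the data). The log2 ratio of Iapp per insulin UMI, -0.03, was -0.018 (40% insulin), -0.016 (no filters), 0.011 (5% mitochondrial), -0.017 (no upper limits), -0.020 (other hormones under 1%), -0.0087 (beta-like clusters), -0.080 (equal cells), -0.033 (thinned) and 0.081 (equal cluster mix). Requiring 100 UMIs per gene left 452 genes higher and 1501 lower past the limit, where fewer genes are tested; median-of-ratios scaling gave 1531 and 2204. Insulin in non-endocrine cells, 1.07% and 2.43% (log2 1.18), was 1.11% in virgin cells without filters (1.12), 2.38% in multipara cells with doublets kept, 0.998% and 2.31% (1.21) in cells with at most 0.5% other hormones, 2.25% in multipara cells clustered by library (1.08), 1.18% and 2.73% (1.21) as medians of cells and 1.36% and 3.23% (1.253) thinned to 1000 UMIs. All differences between the groups are between single libraries, so that mouse, library and parity cannot be told apart, and counting error is the only error given.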

Other observations

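Insulin-rich barcodes were also frequent among those removed at the upper end. Of barcodes with at least 60000 UMIs or 6000 genes, 74 of 86 virgin (86.0%) and 85 of 95 multipara ones (89.5%) were insulin-rich, with Ins1 shares of 27.5% and 29.4%. Of barcodes with 10% or more mitochondrial UMIs, 124 of 541 and 172 of 1082 were, and in that class the Ins1 share was lower, at 23.8% and 25.5%.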
